A study of Mus musculus with 6 samples.

Results

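The family of miR-15, miR-16, miR-195 and miR-497 was examined in small RNA sequencing of embryonic mouse kidney. Its members were taken by name from the deposited table as every mature strand called mmu-miR-15a, mmu-miR-15b, mmu-miR-16, mmu-miR-195a or mmu-miR-497a, with any locus or arm suffix. This gave 10 of the 535 mature miRNAs, on 11 of the 792 rows, 5 of them 5p strands and 5 of them 3p strands. All 10 exceeded a sum of 10 counts over the 6 libraries and were among the 525 miRNAs tested.

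The libraries came from wild-type CD1 embryos of 3 litters at embryonic day 15.5. There were 3 libraries of nephrogenic mesenchyme enriched for nephron progenitors (MNP1, MNP2 and MNP6) and 3 of whole kidney (MWK1, MWK2 and MWK6). Nephron progenitors were what remained after bead depletion of cells bearing CD140a, CD105, Epcam or Ter119. The paper detected the stromal gene Pdgfrβ in this fraction by qPCR and calls the contamination minor. Whole kidney RNA came from the remnants of the same limited digestion and was purified with a Mini rather than a Micro version of the miRNeasy kit, so isolation and kit cannot be told apart from the group. With a single value per mature miRNA the counts totalled 393951, 436112 and 333850 in MNP1, MNP2 and MNP6, against 349241, 360221 and 355848 in MWK1, MWK2 and MWK6.

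A microRNA is cut from a hairpin precursor as a 5p and a 3p strand, and the seed, the stretch near its 5′ end, pairs with target messenger RNAs. miRNAs of this family share a seed and are known for repressing cyclins and other genes that drive cell division, and the survival gene Bcl2. Loss of the locus that encodes miR-15a and miR-16-1 is a recurrent lesion in human chronic lymphocytic leukaemia, and miR-195 is known for its part in the withdrawal of heart muscle cells from the cell cycle after birth.

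The members lie in 3 pairs of neighbouring hairpins. In mm10 coordinates mir-15a (chr14:61632027-61632110) and mir-16-1 (chr14:61631880-61631972) are 54 bases apart on the minus strand, inside the long non-coding gene Dleu2, where mir-15a falls in an intron and mir-16-1 overlaps an annotated exon. mir-15b (chr3:69009772-69009835) and mir-16-2 (chr3:69009902-69009996) are 66 bases apart on the plus strand, in an intron of Smc4, which encodes a condensin subunit. mir-195a (chr11:70235042-70235135) and mir-497a (chr11:70234717-70234800, position from RefSeq) are 241 bases apart on the plus strand, and the GENCODE annotation of that build has no host gene around them. Of the other miRNAs with a known position, only miR-497b lies within 50000 bases of a member, and 17 of the 792 rows have no position in the table or in RefSeq.

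The 5p strands are shown because their common seed defines the family, with miR-322-5p and miR-503-5p from a cluster on chromosome X as relatives. All 10 members had a mature sequence in RefSeq (GRCm38.p6), and capitals mark the seed, bases 2 to 8.
mmu-miR-16-5p: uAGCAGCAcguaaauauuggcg
mmu-miR-15a-5p: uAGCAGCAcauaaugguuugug
mmu-miR-15b-5p: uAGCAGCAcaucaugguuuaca
mmu-miR-195a-5p: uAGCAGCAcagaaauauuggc
mmu-miR-497a-5p: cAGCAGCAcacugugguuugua
mmu-miR-322-5p: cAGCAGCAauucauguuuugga
mmu-miR-503-5p: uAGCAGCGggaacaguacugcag
The 5 members and miR-322-5p carry the seed AGCAGCA, which 10 of 1679 mature miRNAs in RefSeq have, 6 of them in the deposited table, whereas the seed of miR-503-5p is AGCAGCG. Over the whole strand, seed included, miR-195a-5p is the closest to miR-16-5p, with the same base at 19 of 21 positions, followed by miR-15a-5p with 16 of 22. miR-497a-5p has the same base as miR-16-5p at 11 of 22 positions and the same base as miR-15a-5p at 17 of 22. The 3p strands, shown because their seeds differ from this, share no seed with each other or with any other mature miRNA in RefSeq.
mmu-miR-16-1-3p: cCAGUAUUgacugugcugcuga
mmu-miR-16-2-3p: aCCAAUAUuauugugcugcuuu
mmu-miR-15a-3p: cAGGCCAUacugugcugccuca
mmu-miR-15b-3p: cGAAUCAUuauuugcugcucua
mmu-miR-195a-3p: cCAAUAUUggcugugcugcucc

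In the edgeR fit on all 6 libraries, nephron progenitors held more miR-16-1-3p and less miR-15b-5p and miR-497a-5p than whole kidney. miR-16-1-3p was 1.89-fold higher (log2 fold change 0.92, SE 0.24), miR-15b-5p 1.65-fold lower (log2 fold change -0.72, SE 0.26) and miR-497a-5p 3.80-fold lower (log2 fold change -1.93, SE 0.61), with n = 3 libraries per group. With edgeR's quasi-likelihood test and a Benjamini-Hochberg adjusted p of 0.05 as the threshold, 3 of 10 members passed, against 36.6% of all miRNAs tested. Of these, 1 was higher in nephron progenitors (19.4% of all miRNAs) and 2 were lower (17.1% of all). Under alternative settings the call of miR-16-1-3p was lost in 1 of 18 and that of miR-15b-5p in 11 of 18. The call of miR-497a-5p, which had 1 to 10 counts per library, was lost in 5 of 17. The groups did not overlap in CPM, counts scaled to a common total by the TMM method, for 5 of 10 members, against 46.7% of all miRNAs. With library totals in place of TMM the groups did not overlap for 3 of 10 members, against 45.5% of all. The median log2 fold change was -0.65 over the members and -0.01 over all miRNAs, and 9 members against 267 of the 525 miRNAs had a value below 0. Members from the same pair of hairpins are not independent of each other, and 5 members had a mean under 10 counts. Library totals moved the median of all miRNAs to 0.19, and the members' median relative to it was -0.64 under both scalings, with the same 9 members below 0. Leaving out MNP2 left 1 member past the threshold (miR-497a-5p), beside 161 of 502 miRNAs, leaving out MWK2 left 1 (miR-16-1-3p), beside 144 of 508, and DESeq2's Wald test called 1 (miR-16-1-3p), beside 163 of 525. Leaving out MNP1 gave 4 members, with miR-16-5p added, beside 211 of 510 miRNAs, and a block by the number in the column names, added after the values were seen, gave the same 4, beside 210 of 525. A lower value in these bulk samples cannot tell fewer cells that make a miRNA from less of it per cell.

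**Figure D1:**
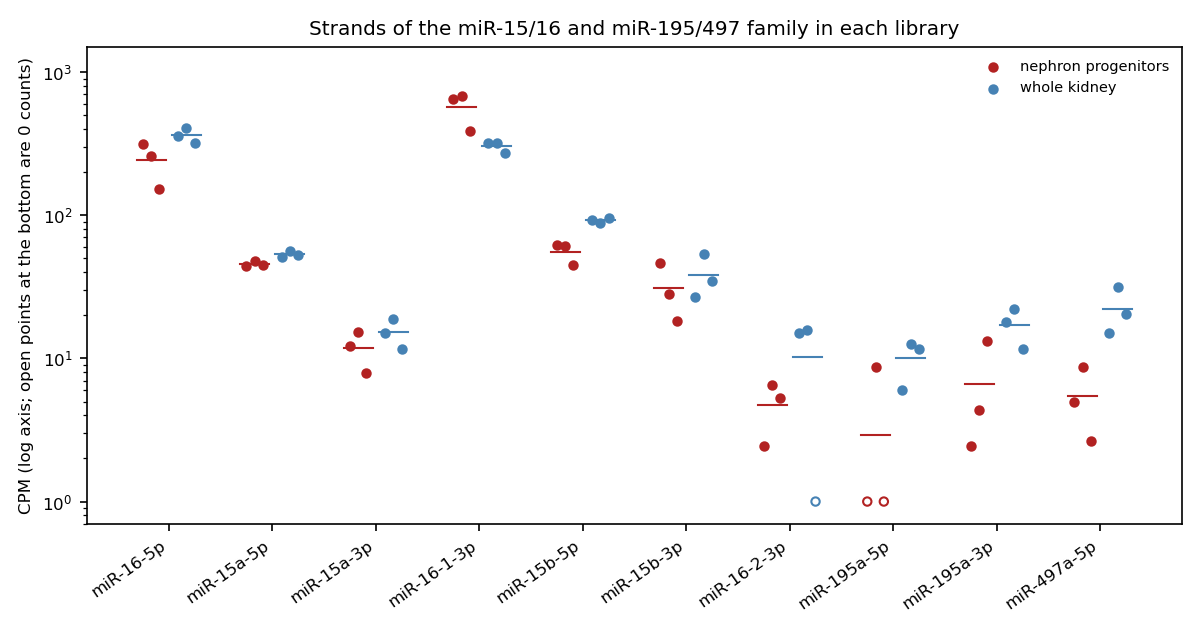
CPM on a log axis for the 10 members in each library, with points for libraries, bars for group means and open points at the bottom for libraries with 0 counts. miR-16-1-3p is the member whose nephron progenitor points, from 386 to 686 CPM, all sit above those of whole kidney.

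The family as a whole was a small part of each library. Its 10 strands made up 0.118%, 0.119% and 0.0770% of the counts in MNP1, MNP2 and MNP6, against 0.0879%, 0.0905% and 0.0798% in MWK1, MWK2 and MWK6. Ranked by mean CPM among the 525 miRNAs, miR-16-1-3p was at 133, miR-16-5p at 154, miR-15b-5p at 254 and miR-15a-5p at 288. The other 6 ranked between 314 and 494, and 5 members had a mean under 10 counts. The members are 21 or 22 bases long, so their counts are compared here without a correction for length. Whether strands of different sequence enter a library equally well was not tested, so orders between strands here are orders of counts. In nephron progenitors miR-16-1-3p led at 576 ± 165 CPM (SD, n = 3), followed by miR-16-5p at 242 ± 82.7, miR-15b-5p at 55.7 ± 9.59 and miR-15a-5p at 45.6 ± 1.99. In whole kidney miR-16-5p led at 362 ± 44.0 CPM, followed by miR-16-1-3p at 305 ± 28.9, miR-15b-5p at 92.6 ± 4.12 and miR-15a-5p at 53.4 ± 2.89. The leading pair did not overlap over the nephron progenitor libraries, and overlapped over those of whole kidney, where miR-16-5p, by the higher of its rows, was nonetheless above within each library. miR-15b-5p and miR-15a-5p, next in the order, overlapped in nephron progenitors, where both were at 44.7 CPM in MNP6, and did not overlap in whole kidney.

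miR-16-5p, the most abundant strand with the family seed, is encoded on both chromosome 14 and chromosome 3 with the same mature sequence. It measured 315, 259 and 152 CPM in MNP1, MNP2 and MNP6, against 361, 406 and 318 CPM in MWK1, MWK2 and MWK6. Every nephron progenitor library lay below every whole kidney library, with MNP1 and MWK6 nearly level and MNP6 well below the rest. This separation depends on the scaling, since in CPM by library totals MNP1, at 325, was above MWK6, at 306. The log2 fold change was -0.57 (SE 0.26, 95% CI -1.14 to -0.01) and did not pass the threshold (edgeR's quasi-likelihood test, Benjamini-Hochberg adjusted p = 0.116). Without MNP1 it did, at an adjusted p of 0.0148 in the same edgeR test with Benjamini-Hochberg adjustment, the lowest of 18 alternatives that ran up to 0.311. It also passed (0.0237) with the number in the column names as a block, a choice added after the values were seen. The table lists the strand on a row for each hairpin, and the mir-16-1 row held between 68.3% and 81.0% of the counts on the mir-16-2 row in each library. The rows gave log2 fold changes of -0.53 and -0.50 for mir-16-1 and mir-16-2 when every row was tested alone. A read of miR-16-5p fits either hairpin, so these rows do not show how much came from each chromosome.

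On chromosome 14 the partner strand of mir-16-1 was higher in nephron progenitors. miR-16-1-3p measured 655, 686 and 386 CPM in MNP1, MNP2 and MNP6, against 322, 321 and 271 CPM in MWK1, MWK2 and MWK6. All 3 nephron progenitor libraries were above all 3 of whole kidney, and MNP6 was the closest to them. The rise passed the threshold (adjusted p = 0.00896, edgeR's quasi-likelihood test, Benjamini-Hochberg adjustment). Without MNP2 the adjusted p was 0.0506 and the log2 fold change 0.75, and over 18 alternatives the adjusted p ran from 0.000989 to that value. This strand is listed for mir-16-1 alone, so its counts, unlike those of miR-16-5p, are tied to the chromosome 14 locus.

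The other strands of the chromosome 14 pair come from mir-15a. miR-15a-5p had 18, 22 and 17 counts in the nephron progenitor libraries and 17, 18 and 18 in whole kidney, or 44.3, 47.9 and 44.7 CPM against 51.1, 56.7 and 52.5 CPM. The groups did not overlap, by a narrow margin, but did with library totals, and neither contained a library far from the others. Its log2 fold change was -0.22 (95% CI -0.82 to 0.37), with an adjusted p of 0.596 in the edgeR quasi-likelihood test after Benjamini-Hochberg adjustment. miR-15a-3p was rarer, with 3 to 7 counts in every library and overlapping groups, and the 95% interval of its log2 fold change ran from -1.47 to 0.82.

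Within each library the balance of miR-16-1-3p and miR-16-5p differed between the groups. The counts of miR-16-1-3p were 2.08, 2.65 and 2.53 times those of miR-16-5p in MNP1, MNP2 and MNP6, against 0.892, 0.791 and 0.853 times in MWK1, MWK2 and MWK6. With this value of miR-16-5p, the higher of its rows, the 3p strand had more counts in every nephron progenitor library. It had fewer counts in every whole kidney library. This ratio, in which miR-16-5p holds reads of both hairpins, needs no scaling between libraries, and its mean log2 was 1.26 ± 0.18 over the nephron progenitor libraries (SD, n = 3), against -0.24 ± 0.09 in whole kidney, a difference of 1.51. Set beside the mir-16-1 row of miR-16-5p the 3p strand was 2.89, 3.84 and 3.13 times as abundant in MNP1, MNP2 and MNP6, against 1.30, 0.990 and 1.15 times in MWK1, MWK2 and MWK6. By that row the group difference was again 1.51, but the order of the strands in whole kidney depended on the library. Relative to its neighbour miR-15a-5p, the 3p strand was 14.8, 14.3 and 8.65 times as abundant in nephron progenitors and 6.29, 5.67 and 5.17 times in whole kidney. Both ratios were chosen after the values were seen, so the permutation p computed for them is not used here. Among 62 precursors with both arms at a mean of 20 counts or more, the median size of the group difference in the log2 ratio of 3p over 5p was 0.37, and mir-16-1 ranked 6 by size, behind mir-322 at rank 2 with 1.96.

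On chromosome 3 the 5p strand of mir-15b was lower in nephron progenitors. miR-15b-5p measured 61.6, 61.0 and 44.7 CPM in MNP1, MNP2 and MNP6, against 93.2, 88.2 and 96.3 CPM in MWK1, MWK2 and MWK6. The groups did not overlap, and the whole kidney libraries lay close together. The counts were 17 to 28 in nephron progenitors and 28 to 33 in whole kidney, and the adjusted p was 0.0424 (edgeR's quasi-likelihood test, Benjamini-Hochberg adjustment). The call was lost when any library but MNP1 was left out, at an adjusted p of 0.0671 without MNP2, 0.0600 without MNP6, 0.104 without MWK1, 0.0847 without MWK2 and 0.0903 without MWK6. It was also lost with library totals (0.124) and in DESeq2's Wald test (0.171), and in 11 of 18 alternatives in all, whose adjusted p values ran from 0.0156 to 0.171. Its log2 fold change lay between -0.81 and -0.53 in each of them.

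The 3p strands of chromosome 3 were not called. miR-15b-3p had 19, 13 and 7 counts in the nephron progenitor libraries and 9, 17 and 12 in whole kidney. Both groups spread widely and overlapped. The log2 fold change was -0.29 (95% CI -1.17 to 0.59, adjusted p = 0.641 by edgeR with Benjamini-Hochberg adjustment). Its size depended on single libraries, at -0.68 without MNP1, -0.078 without MNP6 and -0.00054 without MWK2. miR-16-2-3p, the partner strand of mir-16-2, had 1, 3 and 2 counts against 5, 5 and 0. It was far rarer than miR-16-1-3p in every library, with 16 counts over the 6 libraries against 1030. Its pooled count in nephron progenitors, scaled by TMM-adjusted library size, was 0.478 times that of whole kidney. The exact 95% interval, from 0.143 to 1.45, covers counting error alone.

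The chromosome 11 pair was at the limit of detection, where 3 counts correspond to 6.54 to 9.45 CPM depending on the library. miR-497a-5p had 2, 4 and 1 counts in MNP1, MNP2 and MNP6, against 5, 10 and 7 in MWK1, MWK2 and MWK6. Each whole kidney library had more counts than any of nephron progenitors, and MWK2 was the highest. The call passed at an adjusted p of 0.0228 in the edgeR quasi-likelihood test after Benjamini-Hochberg adjustment, and the pooled count in nephron progenitors was 0.254 times that of whole kidney (exact 95% interval 0.0915 to 0.615, counting error alone). It was lost without MNP6 (adjusted p = 0.0590) or MWK2 (0.125) and in DESeq2's Wald test (0.0830), and in 5 of 17 alternatives in all, over which the adjusted p ran from 0.0198 to 0.125. The hairpin mir-497b overlaps mir-497a on the opposite strand, and whether reads were counted by strand is not given in the sources used here. The mature strands miR-497a-5p (chr11:70234730-70234751) and miR-497b (chr11:70234763-70234786) do not overlap by their RefSeq positions. miR-497b had 1, 4 and 3 counts in nephron progenitors and 3, 1 and 2 in whole kidney, with no order between the groups.

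miR-195a, the other member on chromosome 11, had few reads on either arm. miR-195a-5p had 0, 4 and 0 counts in nephron progenitors and 2, 4 and 4 in whole kidney. MNP2 held every read of this strand in its group and reached the whole kidney level, so the groups overlapped. miR-195a-3p had 1, 2 and 5 counts against 6, 7 and 4, with MNP6 inside the whole kidney range. Neither passed the edgeR quasi-likelihood test after Benjamini-Hochberg adjustment (adjusted p = 0.265 and 0.135), and the 95% intervals of their log2 fold changes were -3.72 to 0.59 and -2.80 to 0.07. Without MNP6, miR-195a-3p passed at an adjusted p of 0.0417, the lowest of 17 alternatives that ran up to 0.354.

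**Figure D2:**
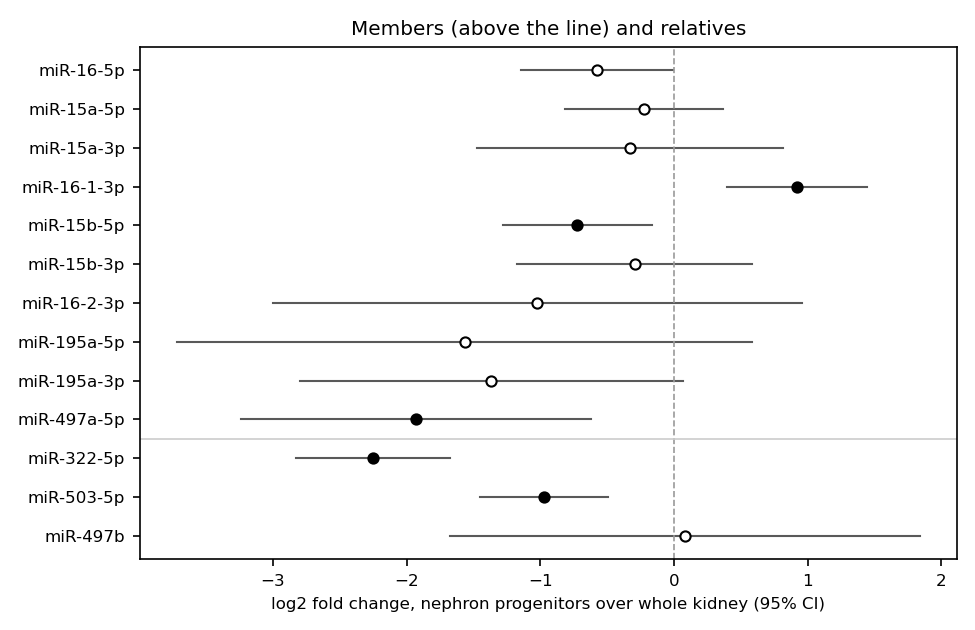
Log2 fold change of nephron progenitors over whole kidney (points) with 95% confidence intervals (lines) for the 10 members above the grey line and for miR-322-5p, miR-503-5p and miR-497b below it. Filled points passed an adjusted p of 0.05, and the intervals of the rarest strands, such as -3.72 to 0.59 for miR-195a-5p, are the widest.

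Ratios between strands within a library were compared for 10 pairs with a two-sided exact permutation test, which with 3 against 3 libraries cannot give a p below 0.1. miR-15a-5p over miR-15b-5p, the 5p strands of the chromosome 14 and chromosome 3 clusters, was 0.720, 0.786 and 1.00 in MNP1, MNP2 and MNP6, against 0.548, 0.643 and 0.545 in MWK1, MWK2 and MWK6. miR-497a-5p over miR-16-5p was 0.0156, 0.0336 and 0.0172 in the nephron progenitor libraries and 0.0417, 0.0775 and 0.0642 in whole kidney. For these 2 of 10 ratios the groups did not overlap, with differences in mean log2 of 0.51 and -1.25, an exact permutation p of 0.1 and a Benjamini-Hochberg adjusted p of 0.5 over the 10 ratios. The 5p over 3p ratio of miR-15a differed by 0.15, that of miR-15b by -0.39 and that of miR-195a by -0.69, with overlapping groups (exact permutation p = 0.6, 0.4 and 0.7, adjusted to 0.778, 0.667 and 0.778). Without MNP6 the first and the last of these changed sign, to -0.072 and 0.34. The difference of miR-15b kept its sign but ran from -0.13 without MNP1 to -0.68 without MWK2. Between libraries of the same column number, which no label ties to a litter, the miR-15a ratio was higher in nephron progenitors each time. It was 3.60 against 3.40 for number 1, 3.14 against 3.00 for number 2 and 5.67 against 4.50 for number 6. In counts this was 18 over 5 against 17 over 5 for number 1, and 22 over 7 against 18 over 6 for number 2. A single read could reverse either order. The ratios of miR-15b and miR-195a went both ways. miR-15b-5p over miR-16-5p differed by -0.10 (exact permutation p = 0.7, adjusted to 0.778), with the sign turning to 0.04 without MNP1 and 0.01 without MWK6. The remaining 4 ratios, among them miR-195a-5p over miR-497a-5p (difference -0.27, or 0.24 without MNP1), also had overlapping groups and adjusted values from 0.667 to 0.8.

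The family seed also comes from chromosome X, on miR-322-5p, whose hairpin lies 200 bases from mir-503. miR-322-5p measured 59.1, 65.4 and 44.7 CPM in MNP1, MNP2 and MNP6, against 274, 327 and 213 CPM in MWK1, MWK2 and MWK6. The groups were far apart, and the log2 fold change was -2.25 (SE 0.27, adjusted p = 2.7e-05 by the edgeR quasi-likelihood test after Benjamini-Hochberg adjustment). miR-503-5p measured 303, 521 and 397 CPM against 812, 856 and 730 CPM, again without overlap, at a log2 fold change of -0.97 (SE 0.22, adjusted p = 0.00371 in the same edgeR test with Benjamini-Hochberg adjustment). The call of miR-503-5p was lost in 1 of 18 alternatives, the numbered libraries without a replicate block (adjusted p = 0.0606). These lower levels are those of 5p strands alone. The other arm of mir-322, miR-322-3p, had on average more counts than miR-322-5p in each group. The log2 ratio of 3p over 5p averaged 5.01 for nephron progenitors, against 3.05 for whole kidney, a difference of 1.96. The fall of miR-322-5p therefore does not stand for the whole hairpin, and the cause of the shift between arms was not tested.

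Adding the 5 members with the seed and miR-322-5p gave a pool of 485, 450.9 and 289 CPM in MNP1, MNP2 and MNP6, against 799.9, 923 and 712 CPM in MWK1, MWK2 and MWK6. The pool was smaller in every nephron progenitor library than in any of whole kidney. miR-322-5p made up 12.2%, 14.5% and 15.5% of its counts in MNP1, MNP2 and MNP6, against 34.2%, 35.5% and 29.9% in MWK1, MWK2 and MWK6. miR-16-5p was the largest share in each library, with 65.0%, 57.5% and 52.7% in nephron progenitors and 45.1%, 44.0% and 44.7% in whole kidney. Without miR-322-5p, the 5 members alone summed to 352 ± 95.3 CPM in nephron progenitors, against 540.2 ± 49.5 CPM in whole kidney (SD, n = 3).

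**Figure D3:**
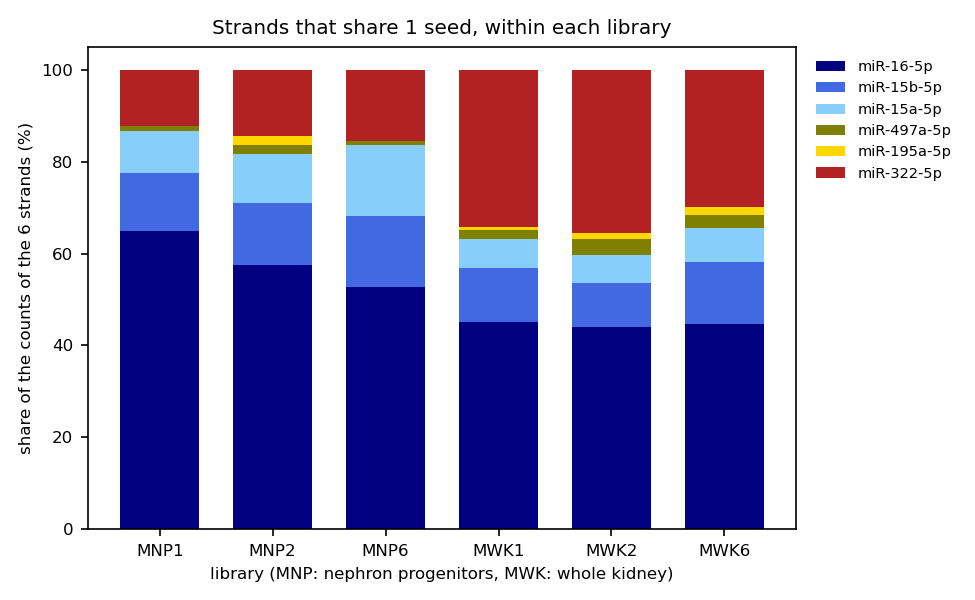
Share of the counts of the 6 strands with the seed AGCAGCA in each library, stacked to the whole, for nephron progenitors (MNP) and whole kidney (MWK). miR-322-5p takes 12.2% to 15.5% in the former and 29.9% to 35.5% in the latter.

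The profiles most like that of miR-16-5p over the 6 libraries, among 202 other miRNAs averaging 50 counts or more, were those of miR-10a-3p, miR-101b-3p and miR-24-3p. Their centred log2 CPM differed from it by a root mean square of 0.09, 0.10 and 0.11. For miR-195a-5p, whose own values rest on few reads, the nearest of 203 were miR-503-5p, miR-34c-5p and miR-21a-5p, at 0.37, 0.40 and 0.42.

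Markers of other cell types were counted by the same edgeR threshold, at which 17.1% of all miRNAs were lower in nephron progenitors. Of 7 lists, 4 had lower strands. All 7 epithelial strands (miR-141, miR-429 and the a, b and c forms of miR-200) were lower in nephron progenitors, with summed levels of 227, 386 and 89.3 CPM in MNP1, MNP2 and MNP6 against 23975, 25414 and 21834 CPM in MWK1, MWK2 and MWK6. The most abundant in every library was miR-200a-3p, and miR-141-3p and miR-200b-5p had 0 counts in each nephron progenitor library. Both endothelial miR-126a strands were lower, and miR-126a-3p was the most abundant in every library, with sums of 419, 595 and 578 CPM against 20132, 21311 and 18150 CPM. Of 7 erythroid strands (miR-451a, miR-144, miR-486a and miR-486b) 5 were lower, with sums of 391, 283 and 176 CPM against 1495, 1486 and 762 CPM. Of 4 smooth muscle and pericyte strands (miR-143 and miR-145a) 2 were lower, and miR-143-3p was the most abundant in every library, with sums of 21799, 28640.3 and 26087 CPM against 61206, 72036 and 57807 CPM. These 4 lists were below whole kidney in every nephron progenitor library.

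In each list for stroma, leukocytes and skeletal muscle 1 strand was higher in nephron progenitors and 0 were lower. Of all miRNAs 19.4% were called higher, and the shares in the lists for stroma and leukocytes were close to this. Of 6 stromal strands (miR-199a, miR-199b and miR-214) 1 was higher, miR-199b-5p, with sums over the list of 15523, 20902 and 24242 CPM in MNP1, MNP2 and MNP6 against 15117, 16141 and 15584 CPM in MWK1, MWK2 and MWK6, with overlap between the groups. Of 6 leukocyte strands (miR-142a, miR-223, miR-150 and miR-155) 1 was higher, miR-223-5p, which had 0 counts in each whole kidney library, with sums over the list of 150.2, 159 and 84.1 CPM against 111, 117 and 73.0 CPM. Of 3 skeletal muscle strands (miR-1a, miR-133a and miR-206) 1 was higher, miR-206-3p, with sums over the list of 300.4, 438 and 131 CPM against 66.2, 113 and 61.3 CPM. Strands with the same counts in every library, as for miR-486a-5p and miR-486b-5p, entered a sum as a single value. They were counted separately among the strands called, although only 5 of 6 stromal and 5 of 7 erythroid strands were distinct. The stromal, leukocyte and skeletal muscle sums were higher in nephron progenitors between each pair of libraries of the same column number. No label ties that number to a litter. Of these sums, only those of skeletal muscle did not overlap between the groups. The part of these cell types in the values of the family was not tested.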

How the data were processed

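Adapter trimming was by BBDuk and alignment to mm10 by Bowtie2 (2.2.3 in the submitters' processing notes). The authors counted known miRBase miRNAs with miRDeep2 and deposited expected counts, not normalized, for each pair of mature miRNA and precursor. The design had assumed counts. Expected counts were rounded to whole numbers, which altered 3 of 792 rows, and the highest value over the rows of a mature miRNA was kept in each library.

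Of the 6 columns, 4 match a sample name and 2 (MNP6 and MWK6) match only a group and have no replicate number. Each replicate is a pooled litter, and p-values measure the spread between these samples. Replicates of a group differed by more than sampling noise (chi-square per degree of freedom from 2.47 to 43.9).

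miRNAs with a sum over 10 counts were scaled by TMM and tested with edgeR 4.0.16 (quasi-likelihood F test, R 4.3.3), with Benjamini-Hochberg adjustment over 525 miRNAs at 0.05. The SE is the log2 fold change over the square root of F. Alternatives were DESeq2 1.42.0, limma 3.58.1 (voom), other scalings, filters and uses of rows, a replicate block and leaving out each library. Ratios used counts plus 0.5 and exact permutation tests in scipy 1.17.1. Pooled counts were scaled by TMM-adjusted library sizes, and their intervals are exact Clopper-Pearson intervals at 95%. Steps were tested on simulated data.

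Every member strand was named, with miRNAs of the same seed, miR-503-5p and miR-497b, the 3 nearest profiles of miR-16-5p and miR-195a-5p (log2 CPM, prior count 2), and marker lists for epithelium, endothelium, erythroid cells, leukocytes, smooth muscle and pericytes, stroma, and skeletal muscle. Members and lists were chosen with earlier results of these data known. The 2 ratios with miR-16-1-3p over a 5p strand, the comparison of arms over all precursors, the block by column number and overlap under library totals were added after the values were seen. Strands without a row in the table were not analysed here.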

Additional observations from a re-analysis of the deposited data

How the results depend on the processing

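Of 169 values for the log2 fold changes of the 10 members under other settings, 148 kept their direction and side of the threshold, 17 kept the direction and lost the call, 4 gained a call and 0 changed sign. The losses were 11 for miR-15b-5p, 5 for miR-497a-5p and 1 for miR-16-1-3p. Of 139 such values for the 8 other miRNAs named, 4 lost a call (3 for miR-24-3p and 1 for miR-503-5p, the latter at an adjusted p of 0.0606 on the numbered libraries without a block, against 0.0348 with it), 3 gained a call and 3 changed sign, all for miR-497b. The count of miRNAs past the threshold was 192, and 120 with more than 10 counts required in every library, a filter that left 260 miRNAs and 4 members. Leaving out each library gave 144 to 211 miRNAs and 1 to 4 family strands, against 3 with all. DESeq2's Wald test called 163 miRNAs and 1 family strand, and the cause was not tested.

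The replicate block, on the 4 numbered libraries, called 153 miRNAs and 1 family strand (miR-16-1-3p), against 134 and 2 (miR-16-1-3p and miR-195a-3p) on those libraries without it. miR-15b-5p and miR-497a-5p were not called there with the block (adjusted p = 0.0907 and 0.0790) or without it (0.0831 and 0.104). Differences between libraries 1 and 2 correlated across miRNAs at -0.007 between the groups. A block by the number in the column names, with MNP6 and MWK6 as a pair, was added after the values were seen. On all 6 libraries it called 210 miRNAs and 4 family strands, the 3 of the main fit and miR-16-5p (0.0237). Deviations from the group means correlated between libraries 1, 2 and 6 of the groups at 0.142, 0.0409 and 0.223 over all 525 miRNAs. Over the 334 with a mean of 10 counts or more the values were 0.201, 0.214 and 0.344, and over the 203 with 50 or more they were 0.309, 0.340 and 0.402. With either of these cuts, also added later, each library was closest to the one of its own number, which over all miRNAs MWK2 was not. The samples came from 3 litters, no label says that a number marks a litter, and the number 6 is in no label, so the main fit has no block.

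Group differences in mean log2 ratio that changed sign were miR-15a-5p over miR-15a-3p (-0.072 without MNP6, highest 0.30 without MNP2), miR-195a-5p over miR-195a-3p (0.34 without MNP6, lowest -1.82 without MNP2), miR-195a-5p over miR-497a-5p (0.077 with 1 count added, 0.24 without MNP1, lowest -0.92 without MNP2) and miR-15b-5p over miR-16-5p (0.038 without MNP1, 0.012 without MWK6, lowest -0.26 without MNP6). The log2 fold change of miR-497b was -0.038 in limma-voom, -0.10 without MNP6, -0.21 without MWK2 and 0.47 without MWK1, against 0.08. The cause was not tested. The other 95 of 101 ratio values kept their direction.

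miR-195a-5p fell under the filter in both fits of the numbered libraries and without MNP2, MWK2 or MWK6, and miR-497b in those fits and without MNP2. miR-21a-5p is among the 10 most abundant miRNAs and had no value without them. Depth limits the chromosome 11 strands, miR-15a-3p and miR-16-2-3p, where a mean under 10 counts leaves intervals that span several-fold changes.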
